A study of Homo sapiens with 3 samples.

Results

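In Cal62 thyroid cancer cells depleted of ADAR1, ASNS, SLC7A11 and SHMT2 had more mRNA with either siRNA than with the control siRNA. SLC7A5, which encodes a leucine transporter chain, had less in every ADAR1-depleted library, as did 17.0% of all genes tested. It passed the test with neither siRNA. All of these belong to 10 genes of amino acid synthesis and transport, picked by name, for their function, from the 58333 genes of the expression table. The choice used no threshold on a value, but it was made with earlier results of these data known. Of these, 6 encode enzymes (ASNS, PHGDH, PSAT1, PSPH, SHMT2 and MTHFD2) and 4 encode membrane transporters or their partner (SLC7A11, SLC7A5, SLC3A2 and SLC7A1). All 10 were in the table and all 10 passed the filter on low values, which left 20247 genes to test. Cal62 is an established human thyroid tumor line, here grown in DMEM with serum. The cells received siControl, a negative control siRNA, or siADAR1 #1 or siADAR1 #2, which target the RNA-editing enzyme ADAR1. Lipofectamine RNAimax carried the siRNA in all 3 groups, so the controls were transfected too. Poly(A)+ RNA of 2 libraries per group was sequenced. The labels describe each group once, the methods name 2 biological replicates, and the time between transfection and lysis is not given in the sources used here. All values come from 1 cell line.

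Cells make serine from a glycolytic intermediate in 3 steps, catalyzed in turn by PHGDH, PSAT1 and PSPH. In mitochondria SHMT2 splits serine into glycine and a one-carbon unit carried by folate, and MTHFD2 oxidizes that unit. ASNS makes asparagine from aspartate, with glutamine as the nitrogen donor. SLC3A2 is the heavy chain that brings the light chains SLC7A11 (cystine in, glutamate out) and SLC7A5 (leucine and other large neutral amino acids) to the cell surface, whereas SLC7A1 carries arginine and lysine without it. Many of these genes are known targets of ATF4, a transcription factor whose translation increases in the integrated stress response, when phosphorylation of eIF2α lowers general translation. With C/EBP partners ATF4 binds composite elements with the core TGATGNAA.

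Since ATF4 reads such elements, the RefSeq promoter windows (GRCh38.p14, 250 bases before to 50 bases after a start site) were searched for TGATGNAA on the forward strand and for its reverse complement TTNCATCA. Windows were at hand for 7 of the 10 genes, 10 windows in all, and there was none for PSPH, SHMT2 or SLC7A11. A match was found in 3 windows, in 1 of 2 for ASNS, 1 of 3 for SLC3A2 and the window of SLC7A1. Among all promoter windows, 1270 of 35116 (3.62%) held a match. The stretches of 30 bases around the matches are shown because these genes behaved differently in the libraries. They are written 5′ to 3′ on the strand of the gene, with the matched letters in capitals.
ASNS, chr7:97872458-97872487, reverse strand: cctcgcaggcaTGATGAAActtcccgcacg
SLC7A1, chr13:29595663-29595692, reverse strand: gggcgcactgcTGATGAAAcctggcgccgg
SLC3A2, chr11:62881719-62881748, forward strand: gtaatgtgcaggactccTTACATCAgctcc
The match lay before the start site in ASNS, with its first base at position -68, and after it in SLC7A1 (position 8) and SLC3A2 (position 38). These letters describe the windows only, and binding of any factor was not measured.

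Library depth ran from 30114840 to 50029763 reads on genes, and 3 reads corresponded to 2.81 to 4.39 normalized counts. The lowest value of any of the 10 genes was 1262 normalized counts, so none of them came near this limit, which covers counting error only. ADAR, the targeted gene, had 10906 and 11701 normalized counts in the siControl libraries, 1328 and 2246 with siADAR1 #1 (15.8% of the siControl mean), and 1663 and 2928 with siADAR1 #2 (20.3%). Its log2FC, the difference between group means on the log2 scale, was -2.71 (limma adjusted p = 0.00356) and -2.35 (limma adjusted p = 0.00153). A gene was called when its log2FC went beyond 0.5 in either direction with a Benjamini-Hochberg adjusted p under 0.05 in limma, the thresholds of the study. PAX8, a thyroid transcription factor, averaged 14897 normalized counts in siControl, 12673 with siADAR1 #1 and 4013 with siADAR1 #2, whereas NKX2-1, another one, had 0 reads in every library. Of 7 thyroid markers 4 passed the filter, and with siADAR1 #2 PAX8 and FOXE1 (mean 200.2 in siControl and 83.4 with siADAR1 #2) were called lower, while TSHR (72.1 and 101) and TG (16.9 and 48.8) had higher means and were not called. With siADAR1 #1 none of the 4 was called. Of the epithelial markers KRT8, KRT18, EPCAM and CDH1, KRT18 was called lower with siADAR1 #2 (43677 and 24166), and none of the others was called with either siRNA. The summed level of 10 markers of blood, endothelial and stromal cells was 164 to 204 normalized counts in siControl. It was 248 to 259 with siADAR1 #1 and 154 to 180.2 with siADAR1 #2, and CD3E had 0 reads in siControl and siADAR1 libraries alike. Within the sum CD14 averaged 39.7 in siControl, 116 with siADAR1 #1 and 26.2 with siADAR1 #2, and ACTA2 86.5, 65.5 and 89.1. Of the 4 that passed the filter, 1 was called higher with siADAR1 #1 and 0 with siADAR1 #2. The part of these markers in the values below was not tested. Fewer cells with a transcript and less of it per cell cannot be told apart in bulk RNA.

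Of the 10 genes, 6 were called higher with siADAR1 #1 (ASNS, PHGDH, PSAT1, SHMT2, MTHFD2 and SLC7A11) and 0 lower. Among all 20247 genes tested in that comparison, 17.4% were called, 6.39% higher and 11.0% lower. With siADAR1 #2, 4 were called higher (ASNS, PSPH, SHMT2 and SLC7A11) and 0 lower, against 27.5% of all genes called, 11.6% higher and 16.0% lower. The median log2FC of the 10 genes was 0.55 with siADAR1 #1 and 0.35 with siADAR1 #2, beside -0.03 and -0.02 over all genes tested. Both comparisons use the same siControl libraries. Scaling mattered for siADAR1 #1: 36.8% of the calls over all genes were higher on the deposited scale, 52.9% with median-centred libraries and 48.0% with quantile-normalized ones. Median-centring moved the median of all genes for that comparison from -0.03 to 0.11, and on that scale PSPH (0.58) and SLC3A2 (0.55) were called higher too. For 6 genes all 4 siADAR1 libraries lay above both siControl libraries, as for 12.0% of all genes tested, and for 1, SLC7A5, all lay below, as for 17.0%. PHGDH, MTHFD2 and SLC7A1 overlapped with siControl.

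**Figure D1:**
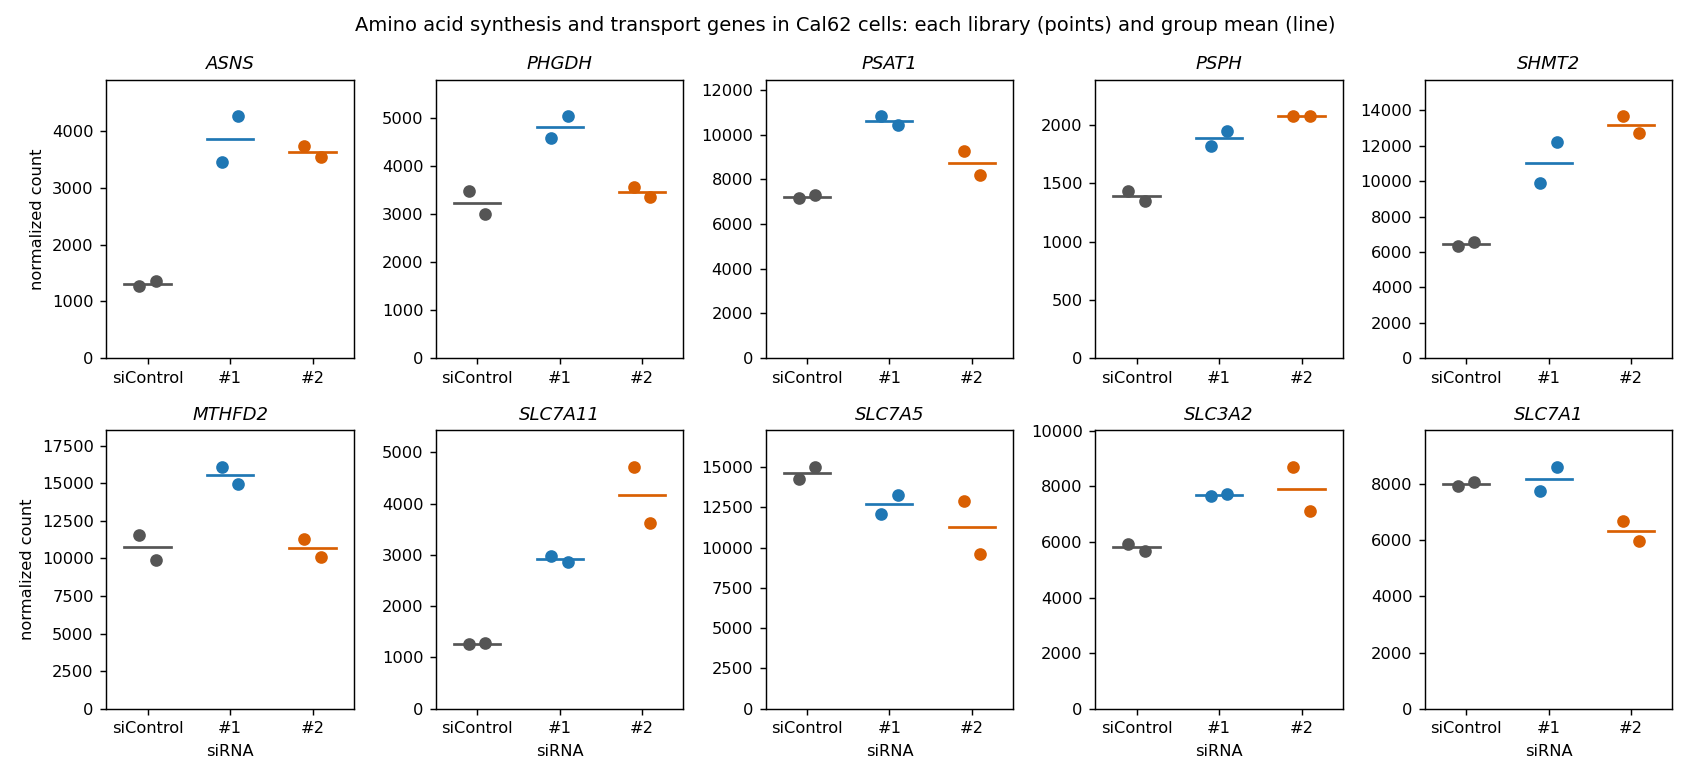
Normalized counts of the 10 genes (vertical axes, linear and starting at 0) in the 2 libraries of siControl, siADAR1 #1 and siADAR1 #2 (horizontal axes), with points for libraries and lines for group means. ASNS, SLC7A11 and SHMT2 lay above siControl with both siRNAs, PHGDH and MTHFD2 rose with siADAR1 #1, and SLC7A5 lay below siControl in all 4 siADAR1 libraries.

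ASNS (chr7:97851677-97872542, reverse strand, GENCODE 44) rose with both siRNAs. It had 1262 and 1356 normalized counts in the siControl libraries, 3460.1 and 4265 with siADAR1 #1, and 3732 and 3542 with siADAR1 #2. All 4 siADAR1 libraries lay above siControl, those of siADAR1 #2 within the range of siADAR1 #1. The means were 2.95 and 2.78 times that of siControl. The log2FC was 1.55 (SE 0.14, limma adjusted p = 0.00269) with siADAR1 #1 and 1.47 (SE 0.14, limma adjusted p = 0.000542) with siADAR1 #2. The call held in all 15 alternatives tried for each siRNA, with log2FC between 1.40 and 1.70 for the first and between 1.42 and 1.63 for the second. A lncRNA on the same strand, ENSG00000284707, overlaps ASNS. It had 65.3 normalized counts in both siControl libraries, 95.5 to 236 with siADAR1 #1 and 96.4 to 170 with siADAR1 #2, far fewer than ASNS, and how reads in the overlap were assigned is uncertain.

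The 3 enzymes of serine synthesis were expressed at different levels and were not all called with the same siRNA. PHGDH (chr1:119648411-119744218, forward strand), which oxidizes phosphoglycerate in the entry step, had 3493 and 2999 normalized counts in siControl, 4591 and 5049.7 with siADAR1 #1, and 3569 and 3354 with siADAR1 #2. It thus rose with siADAR1 #1, while the siADAR1 #2 libraries overlapped with siControl. The log2FC was 0.57 (SE 0.13, limma adjusted p = 0.0201) with siADAR1 #1 and 0.10 (SE 0.13, limma adjusted p = 0.611, 95% interval -0.20 to 0.39) with siADAR1 #2. PSAT1 (chr9:78297125-78330093, forward strand), the aminotransferase of the next step, had 7162 and 7293 normalized counts in siControl, 10837 and 10437 with siADAR1 #1, and 9289 and 8192 with siADAR1 #2. All its siADAR1 libraries lay above siControl, and those of siADAR1 #1 were the highest. It passed with siADAR1 #1 (log2FC 0.56, SE 0.11, limma adjusted p = 0.0138) and not with siADAR1 #2 (0.27, SE 0.11, limma adjusted p = 0.0975).

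PSPH (chr7:56011051-56051604, reverse strand), the phosphatase that releases serine, had 1431 and 1350.45 normalized counts in siControl, 1821 and 1948 with siADAR1 #1, and 2074 and 2076 with siADAR1 #2. Here the siADAR1 #2 libraries were the highest. The log2FC with siADAR1 #2 was 0.58 (SE 0.12, limma adjusted p = 0.00979). With siADAR1 #1 it was 0.44 (SE 0.12, limma adjusted p = 0.0415), short of 0.5 and not called. Its pseudogene PSPHP1, which could share reads with it, had 275 to 284 normalized counts in siControl, 209 to 273 with siADAR1 #1 and 225 to 242 with siADAR1 #2. The pseudogene values were thus not above siControl in any siADAR1 library.

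These smaller calls depended on single libraries. Without siADAR1 #2 replicate 1 or siControl replicate 2, PSPH was not called with siADAR1 #2 (limma adjusted p = 0.06 and 0.0559, with 0.0021 the lowest over the 15 alternatives). PHGDH was not called with siADAR1 #1 when either library of siControl or of siADAR1 #1 was left out, with log2FC between 0.46 and 0.68 over the libraries left out and limma adjusted p up to 0.105. PSAT1 lost its call without either siControl library or siADAR1 #1 replicate 1, with log2FC between 0.53 and 0.58 and limma adjusted p up to 0.0811.

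SHMT2, the mitochondrial serine hydroxymethyltransferase (chr12:57229573-57234935, forward strand), rose with both siRNAs. It had 6351 and 6573 normalized counts in siControl, 9874 and 12224 with siADAR1 #1, and 13679.9 and 12697 with siADAR1 #2. No siADAR1 library overlapped with siControl, and the means were 1.71 and 2.04 times that of siControl. The log2FC was 0.77 (SE 0.13, limma adjusted p = 0.00895) with siADAR1 #1 and 1.03 (SE 0.13, limma adjusted p = 0.00132) with siADAR1 #2. With siADAR1 #1 the call was lost without siControl replicate 1 or 2 (limma adjusted p at most 0.0687, log2FC 0.61 to 0.92 over the libraries left out), and with siADAR1 #2 it held in all 15 alternatives.

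MTHFD2 (chr2:74186172-74217565, forward strand), the mitochondrial dehydrogenase that follows SHMT2 in the folate cycle, did not share this pattern. It had 11531 and 9926 normalized counts in siControl, 16104 and 14982 with siADAR1 #1, and 11273 and 10104 with siADAR1 #2. The siADAR1 #1 libraries lay above all others, and those of siADAR1 #2 fell within the range of siControl. The log2FC was 0.54 (SE 0.12, limma adjusted p = 0.0211) with siADAR1 #1 and -0.0036 (SE 0.12, limma adjusted p = 0.986, 95% interval -0.28 to 0.27) with siADAR1 #2. The call with siADAR1 #1 was lost without either siControl library or siADAR1 #1 replicate 1 (limma adjusted p at most 0.111, log2FC 0.43 to 0.65 over the libraries left out).

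SLC7A11, the light chain of the cystine and glutamate exchanger (chr4:138164097-138242349, reverse strand), had the largest log2FC of the 4 transporter genes among the 10 with each siRNA. It had 1266 and 1276 normalized counts in siControl, 2986 and 2867 with siADAR1 #1, and 4719 and 3615 with siADAR1 #2. The 3 groups did not overlap, and the means were 2.30 and 3.28 times that of siControl. The log2FC was 1.20 (SE 0.15, limma adjusted p = 0.00400) with siADAR1 #1 and 1.70 (SE 0.15, limma adjusted p = 0.000472) with siADAR1 #2. The call with siADAR1 #2 held in all 15 alternatives. With siADAR1 #1 it held in 14, and without siControl replicate 1 the limma adjusted p was 0.0516 (0.0018 the lowest over the alternatives). The antisense gene SLC7A11-AS1 had 17.4 to 76.2 normalized counts over the libraries.

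SLC3A2 (chr11:62856004-62888880, forward strand), the heavy chain shared by SLC7A11 and SLC7A5, had 5927 and 5687 normalized counts in siControl, 7650.5 and 7729 with siADAR1 #1, and 8704 and 7107 with siADAR1 #2. All 4 siADAR1 libraries lay above siControl. The log2FC was 0.41 (SE 0.12, limma adjusted p = 0.0593) with siADAR1 #1 and 0.44 (SE 0.12, limma adjusted p = 0.0325) with siADAR1 #2, both under 0.5, so neither was called. Without siADAR1 #2 replicate 2 the latter was 0.58 and called, and over the libraries left out it ranged from 0.29 to 0.58.

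SLC7A5 (chr16:87830023-87869507, reverse strand), the leucine transporter chain, had 14238 and 15021 normalized counts in siControl, 12091 and 13291 with siADAR1 #1, and 12891 and 9613 with siADAR1 #2. The siADAR1 libraries all lay below siControl, and the siADAR1 #2 libraries lay far apart. The log2FC was -0.21 (SE 0.15, limma adjusted p = 0.382, 95% interval -0.55 to 0.14) with siADAR1 #1 and -0.39 (SE 0.15, limma adjusted p = 0.0846, 95% interval -0.74 to -0.05) with siADAR1 #2, neither of them called. Without siADAR1 #2 replicate 1, the higher of that pair, it was called lower at -0.61 (limma adjusted p = 0.0360, with 0.424 the highest over the 15 alternatives).

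SLC7A1 (chr13:29509414-29595688, reverse strand), the arginine and lysine transporter, had 7923 and 8071 normalized counts in siControl, 7763 and 8622 with siADAR1 #1, and 6678 and 5981 with siADAR1 #2. The siADAR1 #1 libraries lay on both sides of siControl and those of siADAR1 #2 below it. The log2FC was 0.03 (SE 0.11, limma adjusted p = 0.871, 95% interval -0.23 to 0.30) with siADAR1 #1 and -0.34 (SE 0.11, limma adjusted p = 0.0563) with siADAR1 #2. Neither was called, and this held in all 15 alternatives for each siRNA.

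**Figure D2:**
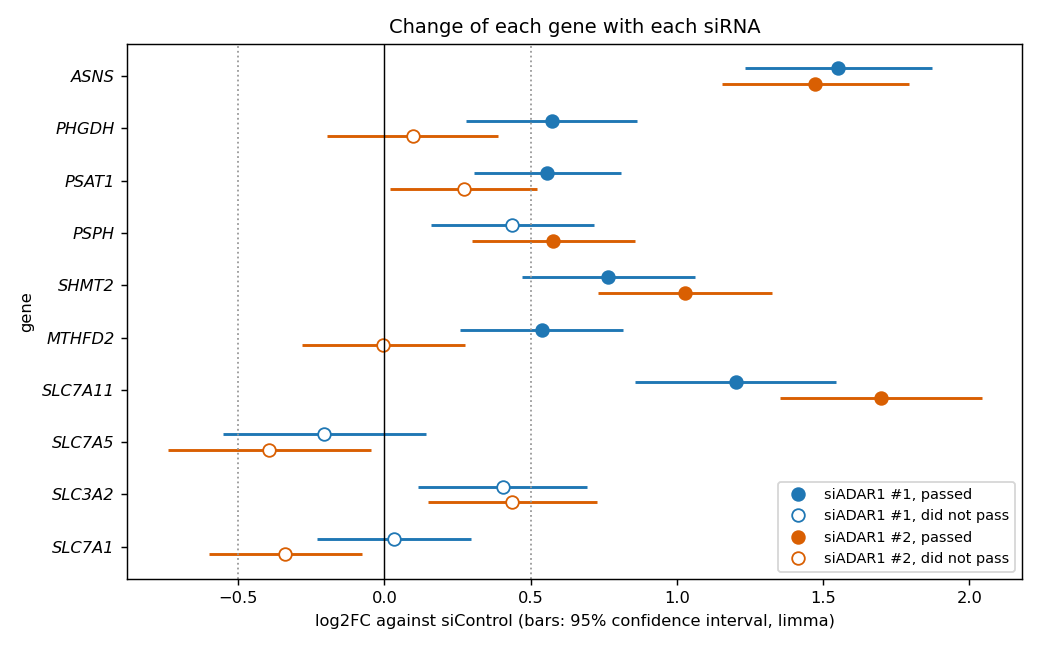
log2FC of each gene (vertical axis) against siControl (horizontal axis), for siADAR1 #1 in blue and siADAR1 #2 in orange, with bars for the 95% interval from limma, filled points for called genes and dotted lines at the 0.5 threshold. ASNS, SHMT2 and SLC7A11 are filled for both siRNAs, and the intervals of PHGDH and MTHFD2 with siADAR1 #2 cross 0.

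The siRNAs were then compared directly. Between siADAR1 #1 and siADAR1 #2, 1 of the 10 genes was called, MTHFD2, higher with siADAR1 #1 (log2 difference 0.54, SE 0.12, limma adjusted p = 0.0101). Among all genes tested 33.7% were called in this comparison, 16.5% higher with siADAR1 #1 and 17.3% lower, so a call here was common. PHGDH differed by 0.48 (limma adjusted p = 0.0205), SLC7A1 by 0.37 (limma adjusted p = 0.0346) and SLC7A11, the one lower with siADAR1 #1, by -0.50 (limma adjusted p = 0.0327), each short of the 0.5 threshold. ASNS differed by 0.08 with a 95% interval from -0.24 to 0.40, and SLC3A2 by -0.03 with an interval from -0.32 to 0.26. PSAT1 differed by 0.29 (limma adjusted p = 0.0732) and PSPH by -0.14 (limma adjusted p = 0.404). For PSAT1 and PSPH a call with only 1 siRNA is thus no shown difference between the siRNAs. The MTHFD2 difference was not called without siADAR1 #1 replicate 1 or siADAR1 #2 replicate 2 (0.46 to 0.62 over the libraries left out).

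With the 4 siADAR1 libraries as 1 group, limma called 0 of the 10 genes and 0% of all genes tested, although 6 of the 10 and 14.2% of all genes had an unadjusted p under 0.05. The smallest adjusted p of any gene was 0.0881. ASNS had a log2FC of 1.51 (limma adjusted p = 0.0881), SLC7A11 of 1.45 (limma adjusted p = 0.117) and SHMT2 of 0.90 (limma adjusted p = 0.135). The targeted gene ADAR, with a log2FC of -2.53 (limma adjusted p = 0.0881), was not called either. This fit counts the difference between the siRNAs as spread. The average of the changes with the siRNAs, in the fit that keeps the 3 groups, called 4 of the 10 genes. Over all 20247 genes tested it called 1269 higher and 2332 lower.

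Per kilobase of exon, PSAT1 and SLC7A5 were the most abundant of the 10 genes in siControl, with means of 3276 and 3071 normalized counts per kb, and SLC7A11 was the least abundant with 132. SHMT2 followed at 1407, SLC7A1 at 1040.2, MTHFD2 at 938 and SLC3A2 at 909, and of these neighbours only MTHFD2 and SLC3A2 overlapped between libraries. PSPH (504), PHGDH (353) and ASNS (267) came next. This order depends on the length used, since the annotated exons of MTHFD2, PHGDH and SLC3A2 sum to far more than their MANE Select transcripts. Per kilobase of the MANE Select transcript, a choice made after seeing the data, SLC3A2 came at 3081 and PHGDH at 1739.6 normalized counts per kb, beside 3276 for PSAT1, 3211 for SLC7A5 and 132 for SLC7A11.

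Ratios of normalized counts per kb of exon within a library show how partners changed against each other. The ratio of SLC7A11 to its heavy chain SLC3A2 was 0.142 and 0.149 in siControl, 0.259 and 0.246 with siADAR1 #1, and 0.359 and 0.337 with siADAR1 #2. The ratio of SLC7A5 to SLC3A2 was 3.22 and 3.54 in siControl, 2.12 and 2.31 with siADAR1 #1, and 1.99 and 1.81 with siADAR1 #2. Relative to the heavy chain, the mRNA of the cystine exchanger chain was thus higher, and that of the leucine transporter chain lower, in all 4 siADAR1 libraries.

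SHMT2 was also set against SHMT1, the cytosolic enzyme of the same reaction, with a ratio of 2.11 and 2.35 in siControl, 7.68 and 8.55 with siADAR1 #1, and 7.81 and 6.24 with siADAR1 #2. SHMT1 itself had 4599.8 and 4267 normalized counts in siControl, 1964 and 2183 with siADAR1 #1, and 2675 and 3108 with siADAR1 #2. The mitochondrial form rose and the cytosolic form fell. The ratio of SHMT2 to MTHFD2 was 1.37 and 1.65 in siControl, 1.53 and 2.03 with siADAR1 #1, and 3.02 and 3.13 with siADAR1 #2. Only the siADAR1 #2 libraries lay apart from siControl in that ratio. No test was run on the ratios, and their absolute size depends on the lengths used: on MANE Select transcripts the mean ratio of SLC7A5 to SLC3A2 in siControl was 1.04 in place of 3.38.

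**Figure D3:**
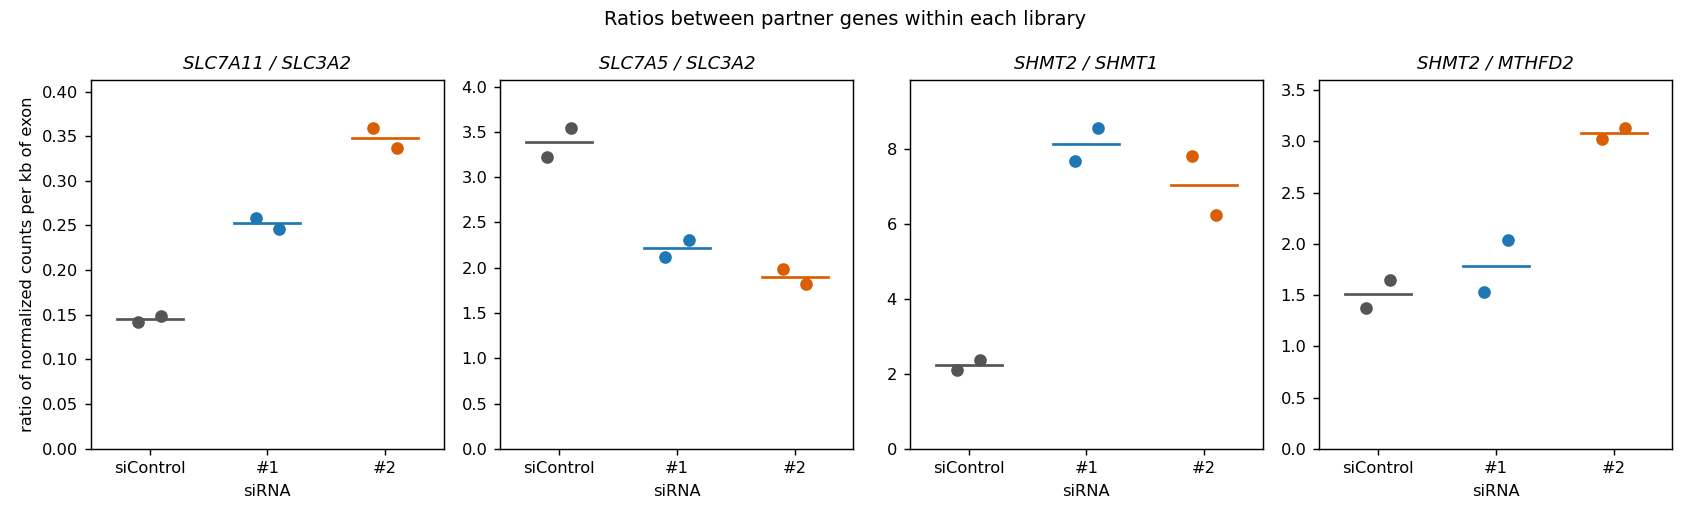
Ratios of normalized counts per kb of exon between partner genes (vertical axes, linear from 0) in each library of siControl, siADAR1 #1 and siADAR1 #2, with points for libraries and lines for group means. SLC7A11 relative to SLC3A2 and SHMT2 relative to SHMT1 lie above siControl in all 4 siADAR1 libraries, and SLC7A5 relative to SLC3A2 lies below it.

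Other genes of serine, glycine and one-carbon metabolism were called in both directions. Of 30 tested, 2 were called higher and 5 lower with siADAR1 #1, and 5 higher and 13 lower with siADAR1 #2, with a median log2FC of -0.10 and -0.37. Among all genes tested, 6.39% were called higher and 11.0% lower with siADAR1 #1, and 11.6% and 16.0% with siADAR1 #2. The higher calls with siADAR1 #1 were thus close to the background. As over all genes, fewer lower calls remained in the list without siControl replicate 1, with each siRNA. Those called with each siRNA were all lower. They included SHMT1 (-1.10 with siADAR1 #1 and -0.62 with siADAR1 #2), the mitochondrial formate producer MTHFD1L (-0.88 and -0.63) and thymidylate synthase TYMS (-0.67 and -0.86). Several genes moved with 1 siRNA. The transsulfuration enzymes CTH (1.67) and CBS (0.84) were called higher with siADAR1 #2, and the mitochondrial serine carrier SFXN1 was called lower with it (-1.13), with 0.31, 0.31 and 0.45 for siADAR1 #1, none of these called. With siADAR1 #1 the serine dehydratase-like gene SDSL (1.26) and the folate carrier SLC19A1 (0.58) were called higher.

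Among 24 other genes of amino acid synthesis tested, 1 was called higher and 5 lower with siADAR1 #1, and 1 higher and 4 lower with siADAR1 #2. The shares over all genes were 6.39% and 11.0% with siADAR1 #1 and 11.6% and 16.0% with siADAR1 #2, so 4 of 24 lower was close to the background. Lower calls in this list became fewer with each siRNA without siControl replicate 1, as they did over all genes. GLUD1, glutamate dehydrogenase, was lower with siADAR1 #1 (-0.50) and with siADAR1 #2 (-0.72). GLUL, which makes glutamine, had a log2FC of -2.37 with siADAR1 #2 (limma adjusted p = 0.00108) and 0.60 with siADAR1 #1 (limma adjusted p = 0.180), a difference of 2.97 between the siRNAs (limma adjusted p = 0.000397). With siADAR1 #1 the alanine aminotransferase GPT2 was called higher (0.67) and pyruvate carboxylase PC (-1.72), the asparaginase gene ASPG (-3.22) and GOT2 (-0.53) lower. ASPG had low counts, 106 and 237 normalized in siControl and 7.48 and 27.6 with siADAR1 #1, and a wide SE of 0.59. The siControl libraries of PC also lay apart, at 719 and 437. With siADAR1 #2 the argininosuccinate lyase gene ASL was called higher (0.87) and ASRGL1 lower (-1.20).

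Among transporters, 5 other SLC7 genes passed the filter, of which SLC7A6 was called higher with siADAR1 #1 (0.52) and 0 were called with siADAR1 #2, where SLC7A6 was at 0.35. Of 32 other amino acid transporter genes tested, 4 were called higher and 3 lower with siADAR1 #1, and 11 higher and 1 lower with siADAR1 #2. Over all genes, 6.39% were higher and 11.0% lower with siADAR1 #1, and 11.6% higher and 16.0% lower with siADAR1 #2. Higher calls in the list became fewer with siADAR1 #1 without siControl replicate 1. The same held with siADAR1 #2 without siADAR1 #2 replicate 1. In both settings the higher calls over all genes became fewer too. The lysosomal transporter SLC36A1 (1.39 with siADAR1 #1 and 0.89 with siADAR1 #2) and the leucine carrier SLC43A1 (0.99 and 0.88) were called higher with each siRNA. The mitochondrial aspartate and glutamate carrier SLC25A12 was called lower with each (-0.70 and -1.07). Others were called with 1 siRNA, among them SLC43A2 (1.95), SLC15A4 (0.58) and SLC16A10 (-0.99) with siADAR1 #1. With siADAR1 #2 these included SLC38A7 (1.68), SLC66A1 (1.18) and SLC25A22 (0.86). SLC6A8, counted in this list although it carries creatine, was called lower with siADAR1 #1 (-1.72).

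Of 25 regulators and targets of the integrated stress response tested, 13 were called higher and 2 lower with siADAR1 #1, and 12 higher and 2 lower with siADAR1 #2, with a median log2FC of 0.55 with each. The background over all genes was 6.39% higher and 11.0% lower with siADAR1 #1, and 11.6% higher and 16.0% lower with siADAR1 #2. The list was chosen with earlier results of these data known, so its counts are no independent test. It holds TRIB3, CHAC1 and DDIT4, for which the paper lists qPCR primers, and also NFE2L2 and MYC. Over the libraries left out, the higher calls in the list were fewest for siADAR1 #1 without siControl replicate 1. For siADAR1 #2 they were fewest without siControl replicate 2. In both settings the higher calls over all genes also became fewer. For 10 of them both comparisons with siControl gave a higher call, including the ATF4 inhibitor TRIB3 (1.36 with siADAR1 #1 and 1.35 with siADAR1 #2), CHAC1, which degrades glutathione (2.22 and 1.70), DDIT3, which encodes CHOP (0.92 and 1.59), DDIT4 (2.35 and 1.96), STC2 (1.74 and 1.86), VLDLR (2.14 and 1.96), JDP2 (1.91 and 2.15), ATF3 (2.27 and 1.05), PPP1R15A (0.69 and 1.30) and SESN2 (1.21 and 0.83). PPP1R15B was higher with siADAR1 #1 (0.69) and lower with siADAR1 #2 (-0.99). The eIF2α kinase gene EIF2AK4 (-0.54) and CEBPB (-0.98) were called lower with siADAR1 #1, and ATF5 (-1.42) with siADAR1 #2.

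The mRNA of ATF4 itself had 13264 and 11790 normalized counts in siControl, 17704 and 19028 with siADAR1 #1, and 14632 and 13132 with siADAR1 #2. It was called with siADAR1 #1 (0.55, limma adjusted p = 0.0166) and not with siADAR1 #2 (0.15, limma adjusted p = 0.370), where 1 library lay within the range of siControl. NFE2L2, which encodes the regulator of SLC7A11 in oxidative stress, had a log2FC of 0.21 and 0.25 (limma adjusted p = 0.275 and 0.175) and was not called. MYC, a known activator of amino acid transporter and serine synthesis genes, was at 0.34 and 0.46 (limma adjusted p = 0.0930 and 0.0240), under the 0.5 threshold. Protein levels and ATF4 translation were not measured in these libraries.

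**Figure D4:**
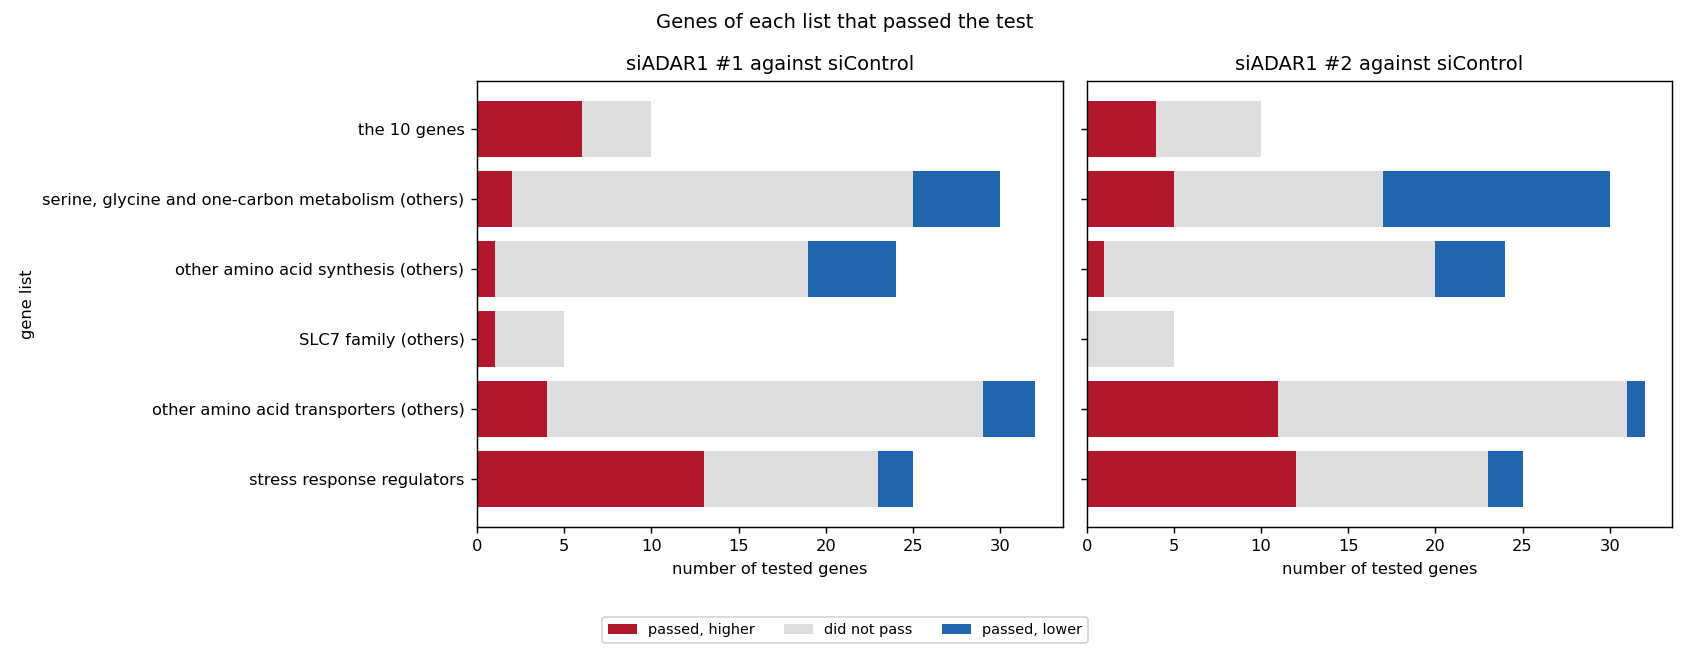
Number of tested genes (horizontal axis) in each list (vertical axis) called higher (red), called lower (blue) or not called (grey) with siADAR1 #1 (left) and siADAR1 #2 (right); the 10 genes are left out of the other lists. Of the 10 genes, 6 and 4 were called higher, of 25 stress response genes 13 and 12, and of 30 other one-carbon genes 2 and 5, with 5 and 13 lower.

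The genes whose pattern was most like that of ASNS over the 6 libraries, among 12659 genes with a mean of at least 100 normalized counts, were TRIB3 (Pearson r = 0.9944), BAG1 (0.9943) and RABEP1 (0.993). Those most like SLC7A11 were RNASET2 (0.9978), ATP6V1E1 (0.9968) and CLK2 (0.9963). These values describe 6 points from 3 groups that share a siControl, chosen as the highest of many. BAG1, a co-chaperone gene, had a log2FC of 0.86 with siADAR1 #1 and 0.80 with siADAR1 #2. RNASET2, a lysosomal ribonuclease gene, was at 0.93 and 1.38.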

How the data were processed

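The authors trimmed reads (75 bp, paired) with Atropos in bcbio-nextgen, counted them on GRCh38 genes with featureCounts, ran Salmon in parallel and normalized with DESeq2, per the methods and the labels. Versions and the strand setting of the counting are not given in the sources used here. The table deposited by the authors is on a log2 scale, after a variance-stabilizing transformation of normalized counts. This was read from the values: the lowest, 0.347735697, stands for a count of 0. Undoing it gave normalized counts, and 100% of values were whole reads within 0.1. The table holds 58333 genes (57830 identifiers with a symbol in GENCODE 44), and 0 columns were left unused.

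Genes with a mean of at least 10 normalized counts were tested on the deposited log2 values with limma 3.58.1 in R 4.3.3 (lmFit, eBayes with trend, two-sided, Benjamini-Hochberg over 20247 genes), with all 6 libraries in 1 fit of 3 groups. A second fit took both siRNAs as 1 group. With 2 libraries per group, the number of replicates limits the precision. The steps were tested on simulated data. The 10 genes and the lists were chosen with earlier results of these data known. Named from the lists are the genes called with both siRNAs and at most 3 per direction and siRNA, by adjusted p, besides ADAR, ATF4, NFE2L2, MYC and the 3 genes most like ASNS and SLC7A11. Some genes that this rule covers are not reported here. Alternatives were other filters and scalings, log2 of the normalized count plus 1, eBayes without a trend, voom on recovered reads, the replicate block, the 4 libraries compared alone, the average of the siRNA changes, and each library left out. Whether the replicate numbers in the column names mark shared cultures is not given in the sources used here.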

Additional observations from a re-analysis of the deposited data

Results flagged for a closer look

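For 4 of the 10 genes the change against siControl differed between the siRNAs by a direct test with an adjusted p under 0.05 in limma, over all genes. PHGDH was higher with siADAR1 #1 than with siADAR1 #2 by 0.48 on the log2 scale, MTHFD2 by 0.54 and SLC7A1 by 0.37, and SLC7A11 was lower by -0.50. Of these only MTHFD2 also went beyond 0.5 and was called, as were 33.7% of all genes. The share of all genes at the adjusted p alone is not given here. At an unadjusted p under 0.05 in limma there were 5 of the 10 genes and 46.6% of all genes, so differences between the siRNAs were common.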

How the results depend on the processing

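Over the 10 genes and 4 comparisons, 542 of 590 values recomputed under an alternative kept their direction and side of the threshold, 23 lost and 15 gained a call, and 10 changed sign. Other filters, eBayes without a trend, the replicate block and the 4 libraries compared alone cannot change the log2FC of a gene. Nor can leaving out a library of a group not compared. Under these settings only the call could change, so the kept directions among them show nothing. ASNS with each siRNA, and SHMT2 and SLC7A11 with siADAR1 #2, were called in all 15 alternatives. Without a trend in eBayes, 2 of the 10 genes were called with siADAR1 #1 (ASNS and SLC7A11) in place of 6, and 1478 of all genes in place of 3518. Between the siRNAs 0 of the 10 were then called, and 2 with median-centred libraries or with voom. Over all 20247 genes tested, 2990 were called higher and 3148 lower between the siRNAs without a trend. Median-centring gave 4080 and 2964, and voom 3339 and 3573. With the siRNAs as 1 group, eBayes without a trend called 4 genes, voom 1 and the average of the siRNA changes 3601, of which 4 were among the 10.

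Leaving out 1 library gave 1 to 6 of the 10 genes and 362 to 3625 of all genes with siADAR1 #1. The lowest came without siControl replicate 1, followed by 2 of the 10 and 1171 genes without siControl replicate 2, and 3 and 1351 without siADAR1 #1 replicate 1. With siADAR1 #2 it gave 3 to 5 of the 10 and 3144 (without siADAR1 #2 replicate 1) to 5790 genes, with 3163 without siControl replicate 1. In these fits the lone library of a group is assumed to vary like the other groups. Which property of a library moves the counts was not tested.

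Among the 10 genes, the values that changed sign were not called. MTHFD2 with siADAR1 #2 was 0.033 with median-centred and 0.13 with quantile-normalized libraries, and -0.11 to 0.10 with libraries left out. SLC3A2 between the siRNAs was 0.072 with median-centred libraries and -0.18 to 0.11 with libraries left out. Leaving out libraries also moved SLC7A1 with siADAR1 #1 from -0.043 to 0.11, PHGDH with siADAR1 #2 from -0.014 to 0.21, and, between the siRNAs, ASNS from -0.071 to 0.23 and SLC7A5 from -0.024 to 0.40. Among the 52 other genes that the naming rule covers, 1396 of 1560 values kept direction and side, 135 lost and 18 gained a call, under the same alternatives, applied to them after the data were seen. ADAR was called in all of these. Another 11 values, none of them called, changed sign. With siADAR1 #1, ASRGL1 was 0.032 with median-centred libraries and -0.22 to 0.0037 with libraries left out, and SLC38A7 was 0.037 with median-centred and 0.043 with quantile-normalized libraries. With siADAR1 #2, SLC19A1 was 0.0296 with median-centred and 0.12 with quantile-normalized libraries and -0.13 to 0.11 with libraries left out, and leaving out libraries moved SDSL from -0.078 to 0.59, PC from -0.30 to 0.42 and SLC43A2 from -0.45 to 0.088. The cause was not tested.

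Deviations of libraries with the same replicate number had positive correlations of 0.111, 0.130 and 0.150 between groups. Over 2 numbers only, these cannot decide whether the numbers mark a pairing, and the main fit used none. With the replicate number as a block, 6, 4, 1 and 0 of the 10 genes were called in the 4 comparisons, as without it. Of all genes, 4094, 6065, 7256 and 0 were called with the block, beside 3518, 5573, 6830 and 0 without it.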
